A study of Mus musculus with 24 samples.

Results

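The chromatin modifier and remodeller families described here were the histone deacetylases (Hdac), lysine acetyltransferases (Kat), lysine demethylases (Kdm), DNA methyltransferases (Dnmt), enhancer of zeste enzymes (Ezh), chromobox proteins (Cbx), chromodomain helicases (Chd) and the Smarc genes, most of which encode subunits of the SWI/SNF and ISWI remodelling machines. Members were the probe sets of 2 Affymetrix mouse array designs, MGU74A (array A) and MGU74B (array B), for which the platform annotation gave a single gene symbol of one of these families. There were 106 of them among 24833 probe sets, 53 on each array, and they represented 59 genes, 18 of them on both arrays. The rule used gene symbols only and no measured value, though the families were chosen with earlier results of these data known.

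Each array design was hybridised with 6 samples of total RNA from Ts1Cje mouse brain and 6 from 2N mouse brain, which the sample titles number 1 to 6 within a genotype. Ts1Cje mice, a model of Down syndrome, are trisomic for a distal segment of mouse chromosome 16, which is translocated to chromosome 12 and on which Sod1, at the segment's boundary, is disrupted. 2N mice have the normal chromosome complement. The labels give no strain, age, sex, treatment or brain region and do not say that the samples are separate animals or that a number stands for the same RNA on both arrays, so a p-value reflects sample-to-sample spread that may in part be technical. In bulk brain RNA, a change in the number of cells of a type and a change in RNA per cell cannot be told apart. By the reference annotation 0 of the 59 genes lie on chromosome 16, so a higher copy number of the gene itself was not at issue for any member.

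DNA in the nucleus is wrapped around histones, and the enzymes of these families add or remove acetyl and methyl groups on histones or methyl groups on DNA. Chromobox proteins bind methylated histones, and the ATP-driven Chd and Smarc machines slide or evict nucleosomes. In the developing brain the subunit composition of the SWI/SNF (BAF) complex switches as progenitors become neurons, and DNA methylation and Polycomb silencing help to fix neuronal gene programmes.

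The median deposited intensity of a sample was 11.2 to 21.7 for array A and 7.9 to 13.8 for array B, and all values below are intensities after quantile normalisation within an array design. Samples hybridised to array A correlated at a Spearman rho of 0.914 to 0.957, and those on array B at 0.883 to 0.926. On array A, replicates 1 and 2 of both genotypes stood slightly apart from replicates 3 to 6, with a median correlation of 0.932 across that split and 0.943 within it; for array B the same medians were 0.906 and 0.907. The brain label was borne out by the neuronal tubulin gene Tubb3, at a mean intensity of 2739, and by Stmn2 at 1867 on array A. The summed level of each of the 10 cell type marker lists measured on array A, and of the 6 measured on array B, overlapped between Ts1Cje and 2N, and 0 of their probe sets passed the test below.

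Chromatin modifier and remodeller transcripts were not shown to differ between Ts1Cje and 2N brain. Of the 53 member probe sets on each array, 45 (array A) and 43 (array B) were bright enough to be tested, which covered 56 of the 59 genes. On array A, 0 of 45 passed limma's test with a Benjamini-Hochberg adjusted p under 0.05, where 0.0966% of all 9316 tested probe sets passed, and the adjusted p of members lay between 0.990 and 0.998. On array B, 0 of 43 passed, where 0.0645% of all 9308 passed, and the adjusted p of members lay between 0.996 and 0.999. With background shares this low a count of 0 sets the members apart from no other genes. The unadjusted p was under 0.05 for 2 of 45 members on array A (Cbx1 and Chd8), against 3.63% of all tested, and for 3 of 43 on array B (2 probe sets of Chd4 and 1 of Smarcd3), against 4.24% of all tested.

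The log2 difference, Ts1Cje minus 2N, was above 0 for 22 of 45 members on array A, beside 48.9% of all tested probe sets, and for 17 of 43 on array B, beside 49.3%. Its median was -0.00407 over members and -0.00424 over all tested probe sets of array A. For array B these medians were -0.01 and -0.00346. The groups were separated without overlap for 0 members on either array, against 0.301% of all tested probe sets of array A and 0.247% of those of array B. The 95% interval of the difference lay inside a 1.5-fold change in either direction for 33 of 45 members on array A (73.3%), beside 55.2% of all tested probe sets. It did so for 26 of 43 members on array B (60.5%), beside 46.9%. Members were also brighter, with a median intensity of 48.0 against 30.8 for all tested probe sets of array A, and 22.7 against 16.1 for array B; the part of brightness in the narrower intervals was not tested. The intervals of the other members reached past 1.5-fold, so a change of that size was not excluded for them.

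**Figure D1:**
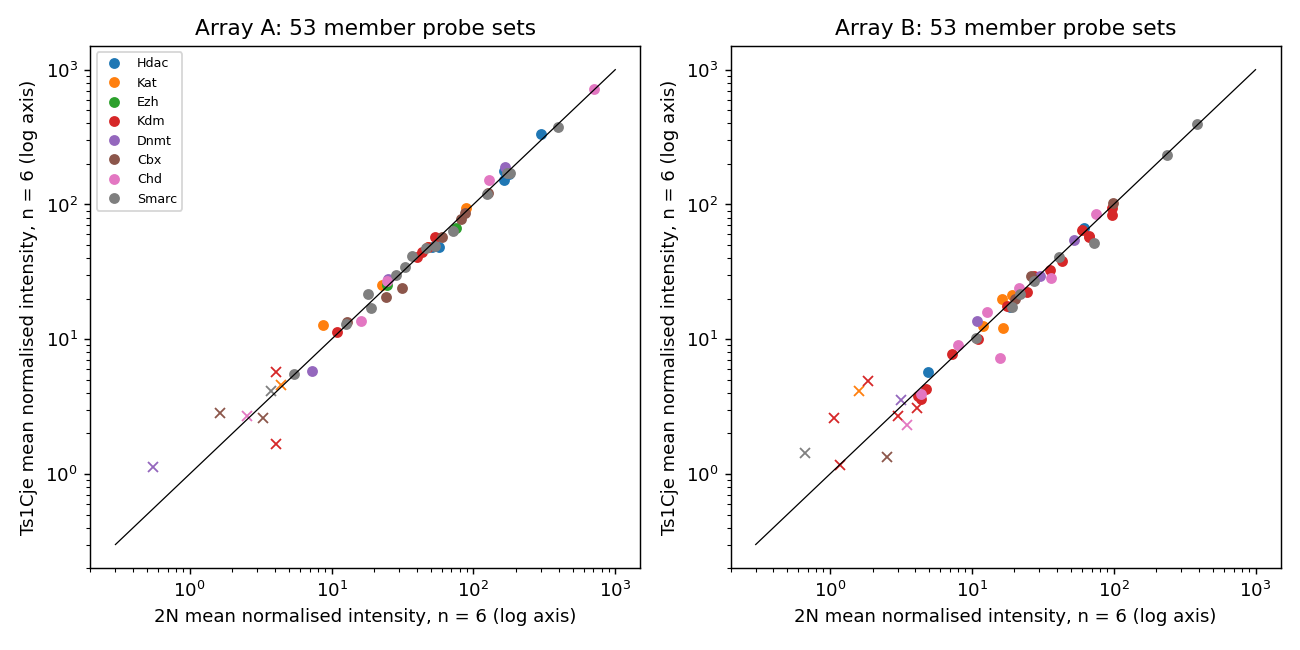
Mean normalised intensity in Ts1Cje brain (vertical) against 2N brain (horizontal) for the 53 member probe sets of each array, both on log axes, n = 6 samples per genotype. Circles are tested members, crosses are members too dim to test, colours mark the families and the line marks equal means; most tested members lie close to the line, the dimmer array B probe set of Chd4 lies farthest below it at 7.21 in Ts1Cje and 15.9 in 2N, and the crosses, with mean intensities of at most 4.87 on array A and 3.58 on array B, scatter around it.

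Histone deacetylases remove acetyl groups and generally accompany gene repression. All 6 Hdac probe sets of array A were tested, 2 were above 0 and 4 below, 0 passed, and all 6 intervals lay inside 1.5-fold. The class I enzyme gene Hdac1 had lowest, median and highest intensities of 40.7, 47.8 and 54.9 in Ts1Cje samples, against 46.3, 58.1 and 65.3 in 2N samples. The groups overlapped, although 4 of the 2N samples were brighter than every Ts1Cje sample. The log2 difference was -0.24 (SE 0.12, 95% interval -0.50 to 0.01, limma adjusted p = 0.99). Its close relatives Hdac2 and Hdac3, also class I, differed by -0.11 (SE 0.13) and -0.09 (SE 0.14).

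Hdac6, an X-linked gene whose cytoplasmic product deacetylates tubulin, ranged from 297.3 to 382.5 around a median of 336.0 in Ts1Cje, against 273.7 to 360.9 around a median of 290.7 in 2N. 2N replicate 2 was the brightest of its group, and the other 5 2N samples lay below 5 of the 6 Ts1Cje samples. The difference was 0.17 (SE 0.081, 95% interval -0.0024 to 0.34, adjusted p = 0.99). Hdac5 and Hdac7 encode class IIa enzymes, which shuttle between nucleus and cytoplasm. Hdac5 averaged 178 ± 8.63 in Ts1Cje and 164 ± 11.4 in 2N (SD, n = 6 each), a difference of 0.12 (SE 0.072). Hdac7 averaged 168 ± 14.8 in Ts1Cje and 177 ± 24.2 in 2N, a difference of -0.07 (SE 0.096). On array B the class IV gene Hdac11, at 67.4 ± 13.3 in Ts1Cje and 62.3 ± 6.13 in 2N, differed by 0.10 (SE 0.12), and 2 dimmer probe sets of the class IIa gene Hdac4 differed by -0.13 (SE 0.23) and 0.07 (SE 0.48).

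Lysine acetyltransferases put acetyl groups on histones. On array A 4 of 5 Kat probe sets were tested, 3 were above 0, and 0 passed. Kat2a, the GCN5 enzyme of the SAGA coactivator, was at 48.0 ± 8.53 in Ts1Cje and 47.8 ± 6.16 in 2N, a difference of -0.00407 (SE 0.13). Its close relative Kat2b (PCAF) differed by 0.17 (SE 0.17). A dimmer Kat2a probe set on array B spread from 4.5 to 30.4 in Ts1Cje and from 5.5 to 24.6 in 2N, and its difference of -0.60 had an SE of 0.43. Kat7, the HBO1 enzyme linked to replication origins, had 2 tested probe sets. The brighter averaged 94.8 ± 12.9 in Ts1Cje and 88.5 ± 13.0 in 2N, a difference of 0.10 (SE 0.12). The dimmer, whose name ends in _f_at, a suffix for probes shared by a sequence family, averaged 12.7 ± 2.70 in Ts1Cje and 8.70 ± 3.40 in 2N, a difference of 0.63 (SE 0.32, adjusted p = 0.99).

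On array B the tested Kat genes were Kat2a, Kat5, Kat6b and Kat14, 2 above and 2 below 0, and 0 passed. Kat6b, mutated in human disorders with intellectual disability, was dim, with lowest, median and highest intensities of 17.8, 19.1 and 23.1 in Ts1Cje, against 13.3, 15.8 and 19.8 in 2N. The lowest Ts1Cje sample lay above 4 of the 6 2N samples, but the groups overlapped. The difference was 0.29 (SE 0.15, 95% interval -0.02 to 0.60, adjusted p = 0.996). It was 0.43 among replicates 3 to 6 and 0.0083 among replicates 1 and 2. Kat5, the TIP60 enzyme, differed by -0.01 (SE 0.29). Kat14, an ATAC complex gene, was at 21.2 ± 2.53 in Ts1Cje and 19.2 ± 3.15 in 2N (0.15, SE 0.15).

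The Ezh enzymes methylate lysine 27 of histone H3 as the catalytic part of Polycomb repressive complex 2. Ezh2, the form typical of dividing progenitors, ran from 54.8 to 81.6 around a median of 70.3 in Ts1Cje, against 66.6 to 82.7 around 77.6 in 2N. Both groups reached about the same upper end, and 2 Ts1Cje samples lay below every 2N sample. The difference was -0.19 (SE 0.12, adjusted p = 0.99). Ezh1, the form more common in non-dividing cells, averaged 25.2 ± 4.94 in Ts1Cje and 24.5 ± 6.01 in 2N, a difference of 0.07 (SE 0.21). Both intervals lay inside 1.5-fold.

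Lysine demethylases remove methyl groups from histone lysines. On array A the 5 tested Kdm genes were all slightly above 0, between 0.02 (Kdm5b) and 0.19 (Kdm1a, SE 0.33), and on array B 4 of 15 tested Kdm probe sets were above 0, between -0.21 and 0.13, with 0 passing on either array. Kdm3a, an H3 lysine 9 demethylase gene, was at 48.5 ± 5.19 in Ts1Cje and 47.6 ± 4.44 in 2N (0.02, SE 0.12). Its relative Kdm3b differed by 0.10 (SE 0.14) on array A and 0.05 (SE 0.30) on array B. Kdm2b, which recruits a variant Polycomb complex to CpG islands, was the most tightly measured, at 94.0 ± 5.36 in Ts1Cje and 96.8 ± 4.07 in 2N, a difference of -0.04 with an interval of -0.20 to 0.11. Of the 3 Kdm2a probe sets, all were below 0, at -0.19, -0.12 and -0.18 (SE 0.15, 0.14 and 0.57). Kdm5b, an H3 lysine 4 demethylase gene, differed by 0.02 (SE 0.16) on array A, by -0.21 (SE 0.14) on array B and by -0.18 (SE 0.65) at a dim array B probe set. The brighter array B value was -0.35 among replicates 3 to 6 and 0.08 among replicates 1 and 2. Its relative Kdm5a differed by -0.17 (SE 0.22). Kdm4b and Kdm4c, which act on H3 lysine 9 and 36, differed by 0.13 (SE 0.20) and 0.09 (SE 0.13). The H3 lysine 27 demethylase gene Kdm6b differed by -0.20 (SE 0.15), and 2 probe sets of Kdm7a by -0.17 (SE 0.17) and -0.03 (SE 0.49).

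The X-linked intellectual disability gene Kdm5c ran from 71.4 to 97.8 around a median of 79.7 in Ts1Cje, against 61.0 to 124.4 around 102.1 in 2N. The 2N samples thus covered the whole Ts1Cje range and reached further on both sides. The difference was -0.20 (SE 0.14, adjusted p = 0.996), and a dimmer Kdm5c probe set differed by 0.02 (SE 0.19). The brighter was at -0.33 among replicates 3 to 6 and at 0.07 among replicates 1 and 2. The latter rests on 2 samples per genotype, and the gap between these values was not tested. Kdm6a, an X-linked H3 lysine 27 demethylase gene, was at 40.6 ± 4.54 in Ts1Cje and 40.2 ± 6.13 in 2N (0.02, SE 0.13). Kdm5d, the Y-linked relative of Kdm5c, had 3 probe sets, all too dim to test, with intensities of at most 9.5 in any sample. Xist, a noncoding RNA made from an inactive X, lay between 115 and 149 in Ts1Cje and between 127 and 162 in 2N on array A. Its array B probe set was dim, between 7.05 and 15.9 in Ts1Cje and between 6.975 and 13.1 in 2N.

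DNA methyltransferases place methyl groups on cytosine. The maintenance enzyme gene Dnmt1 ran from 151.0 to 233.7 around a median of 180.7 in Ts1Cje, against 131.8 to 182.5 around 175.9 in 2N. The medians were close, and 3 Ts1Cje samples lay above every 2N sample. The difference was 0.18 (SE 0.11, adjusted p = 0.99), while a dim second probe set at a mean of 6.55 differed by -0.28 (SE 0.37). Dnmt3a, the de novo enzyme that methylates the neuronal genome after birth, differed by 0.19 (SE 0.17) on array A and 0.07 (SE 0.12) on array B. On array B it was at 54.6 ± 5.91 in Ts1Cje and 52.5 ± 8.59 in 2N. Dnmt3b differed by 0.49 with an SE of 0.52. Dnmt3l, a catalytically inactive cofactor gene on chromosome 10 whose human ortholog lies on chromosome 21, was at 29.3 ± 8.54 in Ts1Cje and 30.5 ± 6.87 in 2N (-0.08, SE 0.19).

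The chromobox genes fall into the HP1 proteins (Cbx1 and Cbx5 here), which bind methylated lysine 9 of histone H3 in heterochromatin, and the Polycomb readers (Cbx2, Cbx6 and Cbx7). On array A all 7 tested Cbx probe sets, of 4 genes, were below 0, between -0.42 and -0.01, and 0 passed. On array B 1 of 3 was below 0. Cbx1, which encodes HP1 beta, had the smallest p of the array A members. Its intensities were 33.8, 19.7, 29.2, 26.2, 18.8 and 16.8 in Ts1Cje replicates 1 to 6, against 31.5, 27.5, 30.0, 38.3, 29.6 and 30.8 in 2N replicates 1 to 6. In 4 Ts1Cje samples it was below every 2N sample, and Ts1Cje replicate 1 was above 5 of the 6 2N samples. The difference was -0.42 (SE 0.18, 95% interval -0.80 to -0.03, unadjusted p = 0.035, limma adjusted p = 0.99). It was -0.53 among replicates 3 to 6 and -0.19 among replicates 1 and 2.

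The other HP1 gene of the set, Cbx5 (HP1 alpha), was measured more tightly. It averaged 121 ± 9.32 in Ts1Cje and 128 ± 8.05 in 2N, a difference of -0.08 (SE 0.081). A second array A probe set differed by -0.07 (SE 0.17) and the array B probe set by -0.01 (SE 0.16). The Polycomb gene Cbx6 differed by -0.01 (SE 0.13) and -0.10 (SE 0.23) on array A, and by 0.03 (SE 0.15) and 0.18 (SE 0.12) on array B. Cbx2 differed by -0.26 (SE 0.24) and -0.02 (SE 0.39). Both Cbx7 probe sets were too dim to test.

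**Figure D2:**
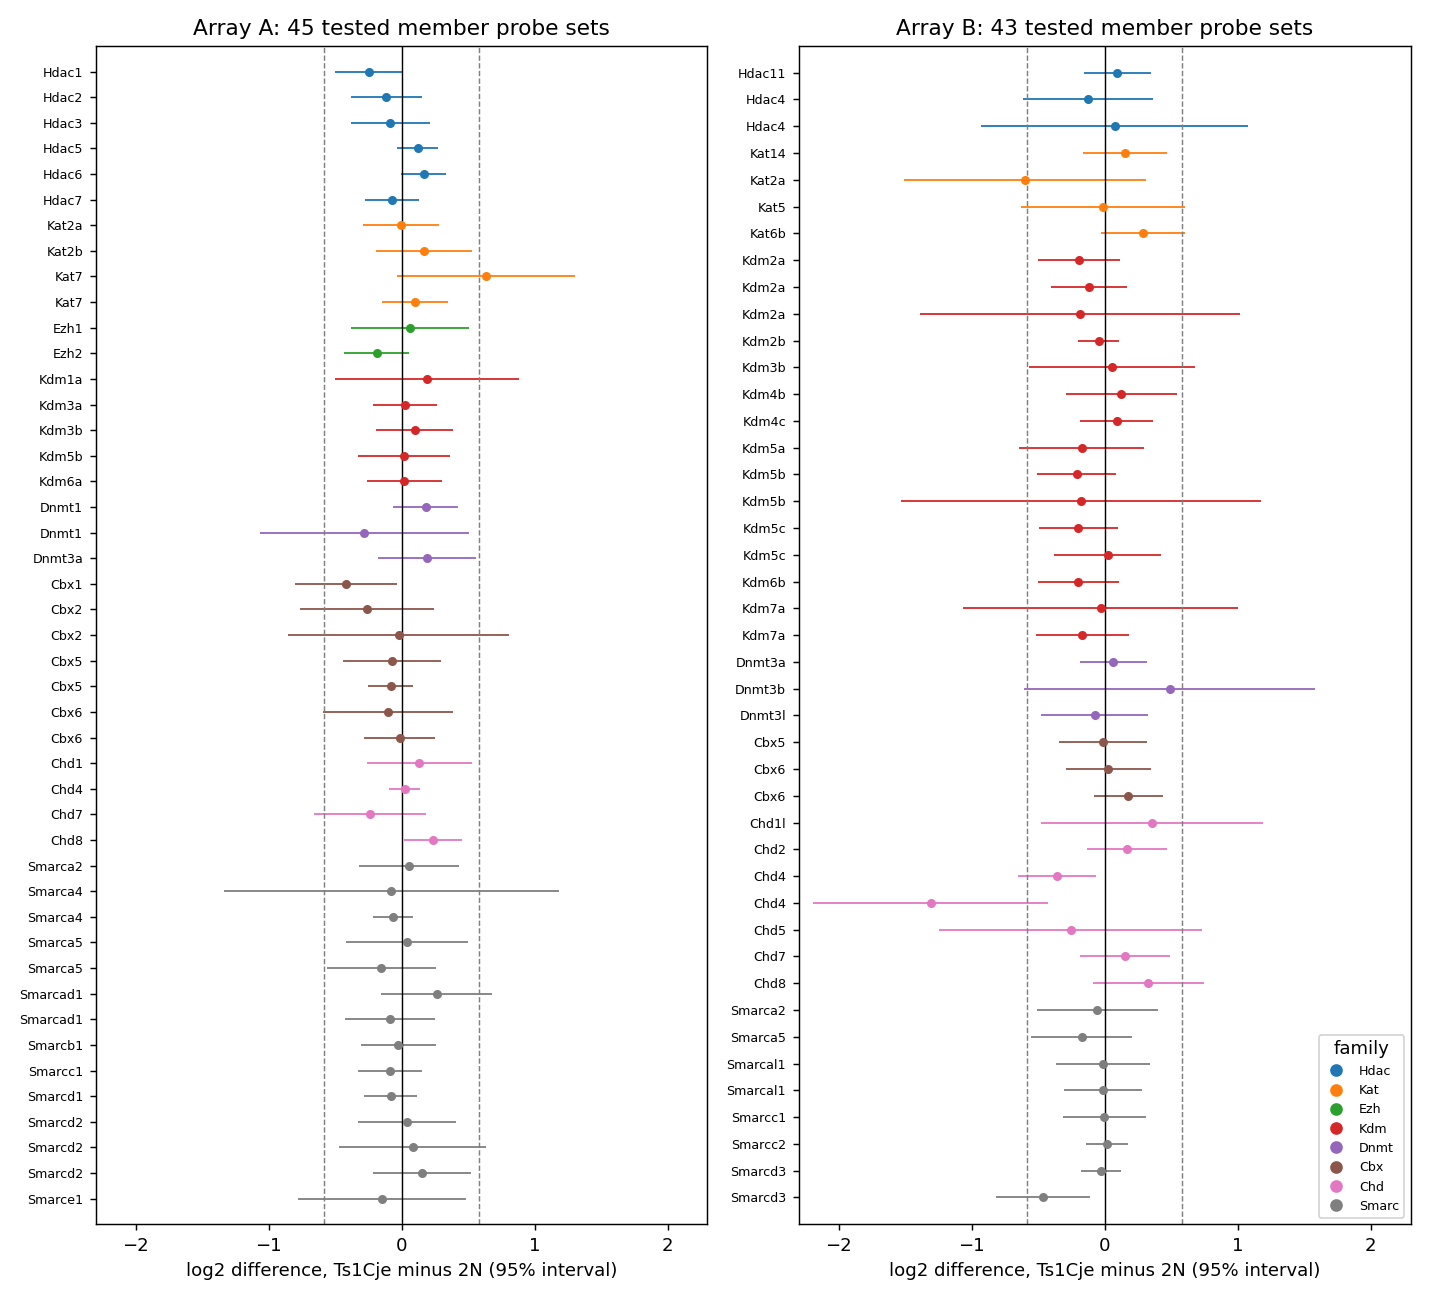
Log2 difference, Ts1Cje minus 2N, of each tested member probe set with its 95% interval from limma, by family, for array A (45) and array B (43), n = 6 samples per genotype. Dashed lines mark a 1.5-fold change in either direction; 33 intervals on array A and 26 on array B lie between them, and the intervals of Cbx1, Chd8, both array B probe sets of Chd4 and 1 of Smarcd3 exclude 0 before adjustment.

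The Chd proteins are ATP-driven remodellers, most of them with paired chromodomains. On array A 3 of 4 tested Chd probe sets were above 0, and on array B 4 of 7, with 0 passing. Chd8, a remodeller gene often mutated in autism, was above 0 on both arrays. On array A its intensities were 148.9, 125.6, 180.5, 146.5, 143.1 and 164.7 in Ts1Cje replicates 1 to 6, against 109.9, 133.5, 155.0, 110.9, 136.9 and 127.1 in 2N replicates 1 to 6. The lowest Ts1Cje sample lay within the 2N range, and 2 Ts1Cje samples lay above it. The difference was 0.23 (SE 0.10, 95% interval 0.02 to 0.45, unadjusted p = 0.037, limma adjusted p = 0.99). On array B a dim Chd8 probe set had lowest, median and highest intensities of 12.9, 15.2 and 20.2 in Ts1Cje, against 8.7, 13.2 and 15.8 in 2N, a difference of 0.33 (SE 0.20, adjusted p = 0.996). Among replicates 3 to 6 the differences were 0.27 (array A) and 0.44 (array B), and among replicates 1 and 2 they were 0.17 and 0.10.

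Chd4, the Mi-2 beta ATPase of the NuRD deacetylase complex, gave unlike values on its 3 probe sets. On array A, where its probe set carries the _f_at suffix, it was bright and steady, at 722 ± 35.6 in Ts1Cje and 711 ± 40.5 in 2N, a difference of 0.02 (SE 0.057, 95% interval -0.10 to 0.14). On array B one probe set ran from 19.3 to 31.9 around a median of 30.2 in Ts1Cje, against 30.9 to 43.6 around 35.6 in 2N. Only the lowest 2N sample fell among the Ts1Cje samples. The difference was -0.36 (SE 0.14, interval -0.65 to -0.07, unadjusted p = 0.019, adjusted p = 0.996).

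The other array B probe set of Chd4 was dimmer still, at 3.2, 8.9, 4.3, 18.8, 3.8 and 4.3 in Ts1Cje replicates 1 to 6, against 8.3, 12.3, 22.2, 8.0, 27.9 and 16.9 in 2N replicates 1 to 6. In 4 Ts1Cje samples it was below every 2N sample, and Ts1Cje replicate 4 lay above 4 of the 6 2N samples. Its difference of -1.31 (SE 0.42, interval -2.19 to -0.42) had the smallest p of all members on array B (unadjusted p = 0.00612, limma adjusted p = 0.996). With 16 added to each intensity before log2, in place of a floor, it was -0.46.

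Among the remaining Chd genes, Chd2 averaged 84.3 ± 17.0 in Ts1Cje and 74.8 ± 13.9 in 2N (0.17, SE 0.14). Chd1 differed by 0.13 (SE 0.19) and Chd1l by 0.36 (SE 0.40). Chd7, mutated in human CHARGE syndrome, differed by -0.24 (SE 0.20) on array A and 0.15 (SE 0.16) on array B. The neuronal family member Chd5 was close to the filter, at 3.90 ± 2.20 in Ts1Cje and 4.36 ± 1.71 in 2N, so its difference of -0.25 had an SE of 0.47.

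**Figure D3:**
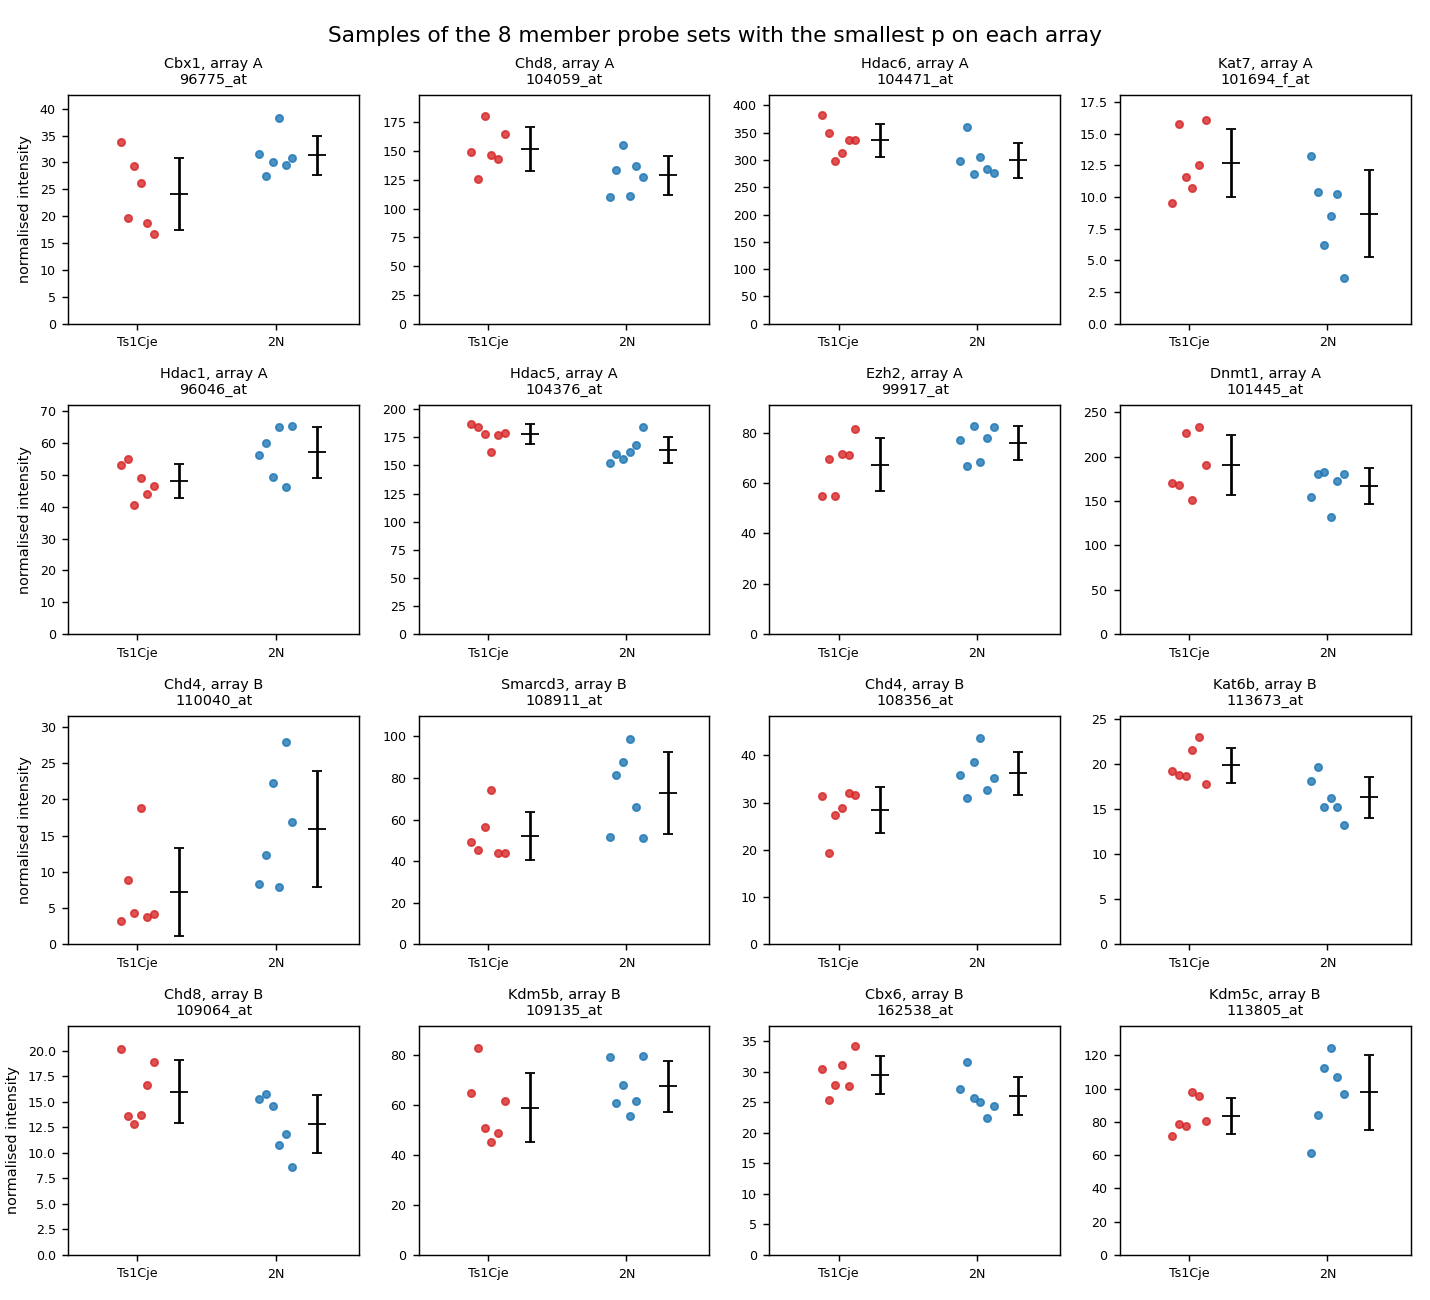
Normalised intensity of each sample in Ts1Cje (red, left) and 2N (blue, right) for the 8 member probe sets with the smallest unadjusted p on array A (upper 2 rows) and array B (lower 2 rows), each axis starting at 0. Black bars are the mean and SD of 6 samples; the genotypes overlap in every panel.

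The Smarc genes encode the ATPases and core subunits of SWI/SNF and related remodellers. On array A 6 of 14 tested Smarc probe sets were above 0 and on array B 1 of 8, and 0 passed. Of the alternative SWI/SNF ATPases, Smarca4 (BRG1) averaged 379 ± 32.1 in Ts1Cje and 395 ± 27.2 in 2N, a difference of -0.06 (SE 0.070, interval -0.21 to 0.08), and a dim second probe set differed by -0.08 (SE 0.60). Smarca2 (BRM) averaged 47.2 ± 7.51 in Ts1Cje and 46.5 ± 12.9 in 2N, a difference of 0.06 (SE 0.18). On array B, where its probe set carries the _f_at suffix, Smarca2 differed by -0.05 (SE 0.22). The core scaffold gene Smarcc2 (BAF170) averaged 393 ± 38.6 in Ts1Cje and 388 ± 25.7 in 2N (0.02, SE 0.075). Its relative Smarcc1 (BAF155) averaged 119 ± 21.6 in Ts1Cje and 125 ± 12.04 in 2N on array A (-0.09, SE 0.12). On array B it differed by -0.00139 (SE 0.15). The core subunit genes Smarcb1 and Smarce1 differed by -0.02 (SE 0.13) and -0.15 (SE 0.30), and the Smarce1 samples spread from 29.8 to 110.7 within 2N alone.

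The BAF60 subunit genes are Smarcd1, Smarcd2 and Smarcd3. Smarcd1 averaged 170 ± 18.4 in Ts1Cje and 181 ± 22.5 in 2N (-0.08, SE 0.094). The 3 tested probe sets of Smarcd2 differed by 0.04, 0.08 and 0.15 (SE 0.18, 0.26 and 0.18), and all but the last carry the _f_at suffix. Smarcd3, the BAF60 form of heart and neurons, had a bright array B probe set at 234 ± 19.9 in Ts1Cje and 237 ± 9.75 in 2N (-0.03, SE 0.072). A second Smarcd3 probe set on the same arrays was at 49.1, 45.3, 56.3, 74.1, 43.9 and 44.0 in Ts1Cje replicates 1 to 6, against 51.6, 81.6, 87.5, 98.9, 66.1 and 51.0 in 2N replicates 1 to 6. In 4 Ts1Cje samples it was below every 2N sample, and the other 2 lay inside the 2N range. Its difference was -0.46 (SE 0.17, interval -0.82 to -0.11, unadjusted p = 0.014, limma adjusted p = 0.996).

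Outside SWI/SNF, Smarca5 (SNF2H), the ISWI ATPase, differed by 0.04 (SE 0.22) and -0.15 (SE 0.19) on array A and by -0.17 (SE 0.18) on array B. Smarcad1, a remodeller active at replicating heterochromatin, differed by -0.09 (SE 0.16) and 0.26 (SE 0.20). The annealing helicase gene Smarcal1 differed by -0.01 (SE 0.17) and -0.01 (SE 0.14).

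Probe sets of 1 gene were compared within arrays, since unlike values such as those of Smarcd3 and Chd4 bear on how a gene is read. For 20 pairs of probe sets, from 18 combinations of gene and array, the log2 ratio of the dimmer to the brighter was compared between Ts1Cje and 2N by exact permutation of the genotype labels (two-sided, 924 arrangements). The ratio differed by -0.44 for Smarcd3 (exact permutation p = 0.045, 0.78 adjusted over the 20 pairs). It differed by -0.95 for the array B probe sets of Chd4 (exact permutation p = 0.12, adjusted p = 0.78) and by 0.53 for Kat7 (exact permutation p = 0.084, adjusted p = 0.78). No pair passed the adjustment, which a lone pair could do only at the smallest exact permutation p possible, 0.002165. An unequal response of the probe sets of these genes was thus neither shown nor excluded.

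For the 12 genes tested on both arrays, the brightest probe set of each had 95% intervals that overlapped between the arrays for all 12. The overlap was narrowest for Chd4, whose array B interval ended at -0.07 and whose array A interval began at -0.10. Overlap of intervals is a loose criterion that does not show agreement, and a difference between the arrays was not tested. The labels do not say whether the values of the arrays come from the same RNA, so they need not be independent. Chd7 differed by -0.24 and 0.15, Kdm5b by 0.02 and -0.21, and Kat2a by -0.00407 and -0.60, each with array A first, and 0 of these values passed.

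**Figure D4:**
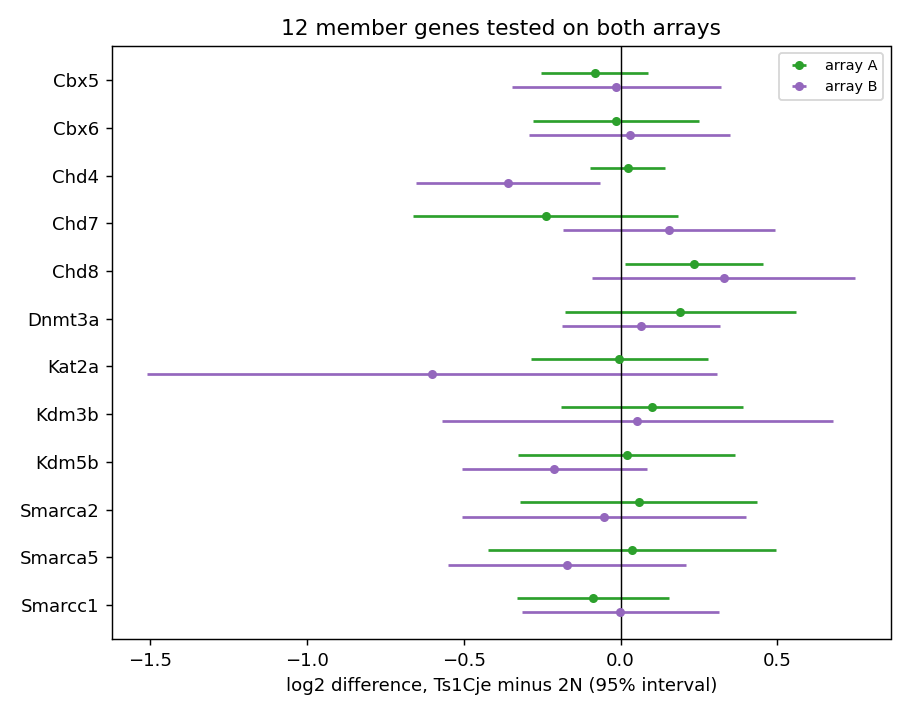
Log2 difference, Ts1Cje minus 2N, with its 95% interval for the 12 member genes tested on both arrays, using the brightest probe set of each gene on array A (green) and array B (purple), n = 6 samples per genotype. Chd4 lies at 0.02 (array A) and -0.36 (array B), and Chd8 at 0.23 and 0.33.

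Too dim to test were 8 member probe sets of array A, with mean intensities of 0.839 to 4.87, and 10 of array B, with 1.05 to 3.58. For 3 genes, Cbx7, Kdm1b and Kdm5d, this left no tested probe set. The other dim probe sets belonged to Cbx1, Chd1, Chd1l, Dnmt3a, Dnmt3b, Kat2b, Kat6b, Kdm5a, Kdm6a, Kdm7a, Smarcd2 and Smarcd3, each with another that was tested.

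Partners of these enzymes that carry other gene names were taken from 10 lists of 167 genes. They included Polycomb and deacetylase complex subunits, histone methyltransferases, histone chaperones and DNA methylation readers. Of 116 tested probe sets on array A, 54 were above 0 and 62 below, and 0 passed, beside 0.0966% of all tested. Of 97 on array B, 50 were above 0 and 47 below, and 0 passed, beside 0.0645% of all tested. The medians were -0.01 and 0.02. At an unadjusted limma p under 0.05 there were 0 on array B, beside 4.24% of all tested, and 2 on array A, beside 3.63%. The 2 were a dim probe set of Sin3b and 1 of Mbd6, and such counts do not set these lists apart from other genes. Among the SWI/SNF subunits without a Smarc name, 5 of 16 (array A) and 5 of 15 (array B) were above 0. Arid1a averaged 290 ± 38.2 in Ts1Cje and 288 ± 27.0 in 2N (0.00114, SE 0.095), and Bcl11a averaged 280 ± 9.10 in Ts1Cje and 285 ± 5.73 in 2N (-0.03, SE 0.058).

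In the other lists, the Polycomb genes Bmi1 and Jarid2 differed by -0.07 (SE 0.071) and 0.01 (SE 0.16), and the corepressor gene Rcor2 by 0.03 (SE 0.082). The corepressor gene Sin3b gave unlike values on its 2 array A probe sets. The brighter averaged 189.6 ± 22.5 in Ts1Cje and 199.5 ± 28.1 in 2N (-0.07, SE 0.10). The dimmer averaged 20.5 ± 4.72 in Ts1Cje and 11.9 ± 6.65 in 2N, a difference of 1.003 (SE 0.37, interval 0.23 to 1.78, unadjusted p = 0.014, limma adjusted p = 0.99). The H3 lysine 9 methyltransferase gene Ehmt2 (G9a) differed by 0.09 (SE 0.11) and the arginine methyltransferase gene Prmt1 by -0.02 (SE 0.10). At their brightest probe sets, the acetyltransferase gene Crebbp differed by 0.14 (SE 0.095) and the coactivator gene Ncoa1 by 0.06 (SE 0.076). A dimmer Ncoa1 probe set on array A differed by -0.18 (SE 0.15), and dimmer Crebbp probe sets on array B by 0.07 to 0.24. The remodeller genes Baz1b and Ruvbl2 differed by 0.03 (SE 0.0999) and 0.12 (SE 0.080), and the histone chaperone genes Npm1 and Set by -0.09 (SE 0.069) and -0.01 (SE 0.086). Mbd6, of the methyl-CpG binding family, averaged 78.7 ± 9.08 in Ts1Cje and 66.9 ± 8.02 in 2N (0.24, SE 0.11, limma adjusted p = 0.99), and Uhrf2 differed by 0.11 (SE 0.14). The sirtuin deacetylase genes Sirt2 and Sirt7 differed by 0.08 (SE 0.13) and -0.04 (SE 0.12), and the JmjC-domain genes Jmjd6 and Riox1 by -0.01 (SE 0.16) and -0.12 (SE 0.12).

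After quantile normalisation, which gives all samples of a table the same distribution, the members moved little as a set. Small movement is thus partly built in, and the same quantity was not computed over all tested probe sets. The median over tested members of a sample's deviation from the member's own mean, on the log2 scale, was -0.04 to 0.04 in Ts1Cje samples of array A, and -0.02 to 0.09 in 2N samples. On array B it lay between -0.08 and 0.10 in Ts1Cje and between -0.00291 and 0.05 in 2N. The genotypes overlapped on both arrays, and on array B the Ts1Cje samples were the more spread, with replicates 4 and 5 at the top and replicates 1 and 3 at the bottom.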

How the data were processed

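The authors deposited 1 intensity per probe set for each sample, and the values themselves point to a linear scale; the software, scaling and probe summary behind them are not given in the sources used here. No scanner files were used, so any centring stays unknown. 66 control probe sets were left out of each table. Each table was then quantile normalised separately, because 2% trimmed means differed up to 2.10-fold for array A and 1.86-fold for array B. Intensities under the table's 10th percentile (1.47 and 1.13) were raised to it before log2. The test took every probe set whose mean reached the 25th percentile (5.11 and 3.90) and used limma 3.58.1 in R 4.3.3 (lmFit, eBayes with trend) for Ts1Cje minus 2N, with Benjamini-Hochberg adjustment over each table. The floor alters a difference only where intensities lie under it, and there it tends to shrink it. The dimmer array B probe set of Chd4, with a lowest intensity of 3.18, lay above the floor in every sample. The number of arrays limits the precision.

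Gene symbols came from the platform annotation, and all 59 member genes matched the reference annotation (GRCm38.p6) by gene ID, with 0 changes of symbol. By rule, the text names the members with the 8 smallest p per array, the 2 brightest of each family and array, the brightest probe set of each gene tested on both arrays, and the 2 brightest of each other list. Further members, so that each tested one is accounted for, and dimmer probe sets of Sin3b, Crebbp and Ncoa1 were added after their values were seen. The members and lists were chosen with earlier results of these data known, and the comparison between probe sets of 1 gene was likewise added later. The normalisation, floor, filter and limma fit were run on simulated data with added changes of known size. The counts over members and lists, the alternative settings and the comparison between probe sets of 1 gene were not. The numbers were not taken as pairs, because the labels do not give them as such. Same-numbered Ts1Cje and 2N samples had deviations correlated between 0.01 and 0.11, all above 0, which does not exclude a pairing.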

Additional observations from a re-analysis of the deposited data

Results flagged for a closer look

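In 5 of 100 genotype groups of named member probe sets, 1 sample stood apart from the other 5 by more than Dixon's criterion allows at the 95% level; about 1 in 20 groups is flagged by chance. The bright Smarcd3 probe set on array B was at 194 in Ts1Cje replicate 6, against 235 to 246 in the other Ts1Cje samples. The brighter array B probe set of Chd4 was at 19.3 in Ts1Cje replicate 2, against 27.4 to 31.9 in the others. Smarca5 on array B was at 10.3 in Ts1Cje replicate 4, against 16.2 to 20.3. On array A, Ezh1 was at 12.9 in 2N replicate 2, against 23.9 to 29.6 in the other 2N samples, and Kat2a was at 59.7 in 2N replicate 6, against 42.7 to 47.7.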

How the results depend on the processing

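Under each of the 24 alternatives per array (other normalisation, floor, offset, filter, prior, weights, replicate block, replicates 3 to 6 or 1 and 2 alone, a term for that split, and each sample left out), 0 member probe sets and 0 probe sets of the other chromatin lists passed on either array. The median over members stayed between -0.05 and 0.02 on array A. On array B it was 0.0495 without normalisation between arrays, and between -0.04 and -0.01 otherwise; the cause was not tested. With 1 sample left out, the lowest and highest medians were -0.03 and 0.02 for array A, and -0.04 and -0.01 for array B. With the replicate number as a block the count of members that passed was 0 on both arrays. Each number holds 1 sample of each genotype, so this block cannot change a log2 difference, and the medians stayed at -0.00407 and -0.01. The other prior and the term for the replicate split cannot change the differences either. None of these settings therefore bears on the medians or signs given here. The check of the numbers gave 4 of 6 Ts1Cje samples on each array that correlated best with their own number, a hint from the data and not from the design. Of 50 named member probe sets, 24 kept their sign under every alternative that gave a value and 26 changed it under at least 1. Among the 50, 18 had the other sign in replicates 1 and 2 alone and 4 in replicates 3 to 6 alone. The main difference takes 4 samples per genotype from replicates 3 to 6 and 2 from replicates 1 and 2. Closer agreement with replicates 3 to 6 is thus partly built in, and these counts do not rank the 2 parts. The smallest adjusted p of a named member under an alternative was 0.40. Chd8 on array A ran from 0.17 to 0.29, Cbx1 from -0.53 to -0.19, the brighter array B probe set of Chd4 from -0.44 to -0.24, the dimmer from -1.65 to -0.46, and the dimmer Smarcd3 probe set from -0.57 to -0.36. Dim probe sets have wide intervals, which limits what can be said of them.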
